A study of Rattus norvegicus with 24 samples.

Results

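The extraocular muscles (EOM), the small muscles that move the eye, were compared with the extensor digitorum longus (EDL), a fast hindlimb muscle that extends the toes, in rats (Rattus norvegicus) aged 18 months. The comparison holds the 8 arrays whose titles name that age, 4 of EOM and 4 of EDL, out of 24 arrays of both muscles at 6, 18 and 30 months, and all 8740 probe sets that are not controls. Neither group is labelled with a treatment, genotype, strain or sex, so muscle is the 1 labelled difference between them. Each array measured RNA pooled from 4 animals, per the design text, with replicates made independently. P-values therefore measure the spread between pools, and the labels do not tie EOM pools to EDL pools of the same rats. EOM tissue holds all fibre types and layers of these muscles together, with whatever nerve, vessel, connective tissue and gland was taken with them.

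Extraocular muscles are built unlike limb muscles. Their fibres are small, contract fast, resist fatigue and keep myosins in adult life that limb muscles make only before and around birth, together with a heavy chain of their own. They are supplied by small motor units, and some of their fibres carry many nerve endings rather than a single one. The EDL is made mostly of fast glycolytic and fast oxidative fibres, with few slow fibres. In whole tissue, more cells of a type and more RNA per cell cannot be told apart, and this holds for every transcript below.

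A transcript was read by a probe set, several short oligonucleotides whose brightness the authors combined into 1 linear intensity in arbitrary units. The number of arrays limits the precision. Array medians were 111.3 to 133.4 units in EOM and 89.7 to 132.2 in EDL, and arrays of a group correlated at a median Spearman's rho of 0.947 to 0.949 in EOM and 0.921 to 0.931 in EDL. Beta-actin probe sets at the 3' and 5' ends, a check of RNA quality, gave ratios of 1.13 to 1.62 in EOM and 1.14 to 2.12 in EDL. The labels held against defining markers: the extraocular myosin Myh13 read 15289 to 16204 units on the EOM arrays and 87.7 to 115 on the EDL arrays. Markers of skeletal fibres summed to 123392 to 166915 units in EOM and 180811 to 260917 in EDL. Intensities below an array's 25th percentile, 21.4 to 34 units here, were set to that floor before log2 was taken. Differences are log2 EOM minus EDL ± SE, 4 arrays against 4, with adjusted p-values from a limma fit over all 24 arrays.

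Of 5741 probe sets bright enough to test, 1343 (23.4%) were called at an adjusted p under 0.05, 812 higher in EOM (14.1%) and 531 lower (9.25%). Calls with a difference of at least 2-fold numbered 844 (14.7%), 579 higher and 265 lower. Counted by gene, with the brightest probe set standing for each of 3419 genes, 518 were higher (15.2%) and 310 lower (9.07%). The 4 EOM arrays lay wholly above the 4 EDL arrays for 544 genes (15.9%) and wholly below for 364 (10.6%). The larger differences ran more often upward: 362 called genes were at least 2-fold higher against 141 lower, and 94 at least 4-fold higher against 22 lower. The median difference over all genes tested was -0.016. Of 281 called genes with more than 1 tested probe set, 248 had all of them on the same side, and none had a probe set called the opposite way.

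**Figure D1:**
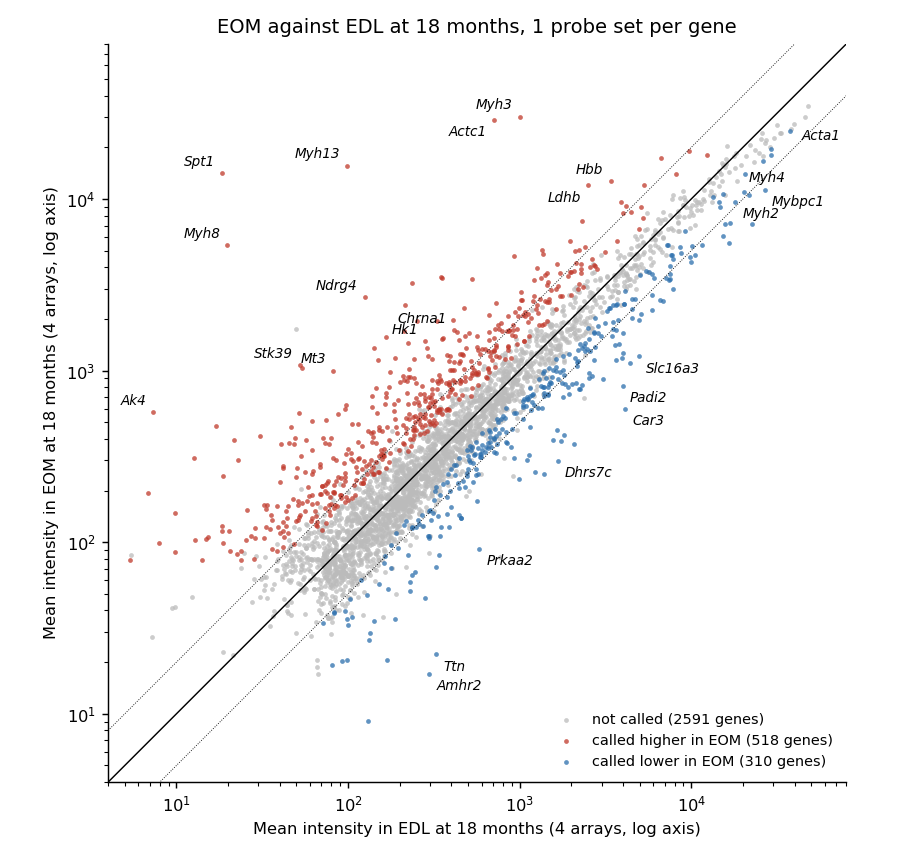
Mean intensity of each of 3419 genes in EOM (vertical, log axis) against EDL (horizontal, log axis) at 18 months, 4 arrays each, with the line of equality and dotted lines at 2-fold. The 518 genes called higher in EOM are red and the 310 called lower are blue. Myh13, Myh8, Myh3 and Actc1 stand far above the line, while Ttn and Amhr2 stand farthest below it among the genes labelled.

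Sarcomere genes made up 4 of the 5 largest rises, and Ttn was the largest fall. Myosin heavy chain is the motor protein of the thick filament, and rats carry a row of fast and developmental heavy chain genes side by side on chromosome 10, in the order Myh3, Myh2, Myh1, Myh4, Myh8 and Myh13, with no other protein-coding gene between them in RefSeq. Myh13, the extraocular heavy chain, read 15716, 16204, 15288 and 15323 on the 4 EOM arrays and 115, 106, 87.7 and 87.7 on the 4 EDL arrays. All EOM arrays lay within a narrow range and far above EDL, a difference of 7.31 ± 0.35, or 159-fold (adjusted p = 1.2e-13). Myh8, the perinatal chain, read 5064, 5377, 6720.1 and 4312 in EOM and 3.9, 29.1, 29.9 and 16.3 in EDL, where 3 of 4 arrays were at the floor. Its difference of 7.40 ± 0.25 is in part set by that floor. Myh3, the embryonic chain, read 26791, 37564, 23222 and 33189 in EOM and 759, 1055, 1296 and 910.4 in EDL, a difference of 4.91 ± 0.27, or 30.1-fold (adjusted p = 1.7e-12). Myh3 has 5 tested probe sets: the others ranged from 0.91, which did not pass, to 7.81, so the size of its difference depends on the probe set read.

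The heavy chains of adult fast limb fibres went the other way or did not pass. Myh2, the fast 2A chain, read 10108, 10258, 9783 and 8196 in EOM and 19821, 18874, 18637 and 14979 in EDL, 1.88-fold lower (adjusted p = 0.0003). Myh1, the fast 2X chain, was 3.45-fold lower at 66.7 to 198 units against 321 to 399.7. Myh4, the fast 2B chain, was bright in both muscles, 14378 to 18217 units in EOM and 17561 to 23498 in EDL, with a difference of -0.32 ± 0.15 (adjusted p = 0.13) and overlapping arrays. So in the same row of genes the last pair, Myh8 and Myh13, were each over 100-fold apart between the muscles, with Myh8 partly set by the floor, while Myh4, next to Myh8, was not called.

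Actin makes the thin filament. Actc1, the alpha-actin of heart and of developing skeletal muscle, read 28488, 31599.8, 23429 and 31609 on the EOM arrays and 696, 1283, 462 and 407 on the EDL arrays. The groups were far apart, 44.6-fold (5.48 ± 0.45, adjusted p = 2.7e-09). Acta1, the alpha-actin of adult skeletal muscle, read 26050.3, 30303, 22635 and 30047 in EOM and 36058, 35008, 33373 and 54749 in EDL, which did not overlap, with a difference of -0.53 ± 0.21 that did not pass (adjusted p = 0.079). At these intensities the probe sets are among the brightest on the arrays.

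Promoters of RefSeq genes on GRCr8, 250 bases before to 50 after the annotated start, are printed for 2 pairs whose muscle differences were unlike in size, the heavy chains Myh13 and Myh4 of the same row and the actins Actc1 and Acta1. They lie at chr10:52511523-52511822, chr10:52421898-52422197, chr3:121271778-121272077 and chr19:68784145-68784444, the myosins on the plus and the actins on the minus strand. Capitals mark 4 motifs of muscle and general promoters found on either strand: TATAAA, the E-box CAGCTG bound by MyoD-family factors, the CArG box bound by serum response factor and the MEF2 box.
Myh13: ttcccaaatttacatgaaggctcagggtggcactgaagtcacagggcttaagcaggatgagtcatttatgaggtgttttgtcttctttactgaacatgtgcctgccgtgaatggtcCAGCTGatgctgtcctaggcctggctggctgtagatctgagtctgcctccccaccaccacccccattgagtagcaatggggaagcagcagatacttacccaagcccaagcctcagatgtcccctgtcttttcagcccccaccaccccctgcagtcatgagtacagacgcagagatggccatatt
Myh4: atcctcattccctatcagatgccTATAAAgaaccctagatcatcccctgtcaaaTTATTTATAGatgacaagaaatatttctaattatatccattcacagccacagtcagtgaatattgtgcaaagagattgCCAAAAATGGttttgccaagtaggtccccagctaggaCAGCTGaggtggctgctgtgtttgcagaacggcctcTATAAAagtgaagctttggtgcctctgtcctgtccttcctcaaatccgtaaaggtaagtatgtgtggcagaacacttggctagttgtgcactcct
Actc1: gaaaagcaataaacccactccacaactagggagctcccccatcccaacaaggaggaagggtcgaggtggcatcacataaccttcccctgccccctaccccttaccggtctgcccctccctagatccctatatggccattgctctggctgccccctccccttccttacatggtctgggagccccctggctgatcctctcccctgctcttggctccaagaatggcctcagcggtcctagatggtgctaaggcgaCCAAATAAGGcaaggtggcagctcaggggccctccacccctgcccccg
Acta1: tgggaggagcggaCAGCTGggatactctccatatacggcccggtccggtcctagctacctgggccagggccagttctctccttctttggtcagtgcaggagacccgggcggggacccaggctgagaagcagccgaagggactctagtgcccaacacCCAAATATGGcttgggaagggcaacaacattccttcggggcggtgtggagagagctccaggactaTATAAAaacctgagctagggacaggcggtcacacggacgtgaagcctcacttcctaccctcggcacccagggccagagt

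In these windows Myh4 held 3 TATAAA matches, 1 E-box, 1 CArG box and 1 MEF2 box, of which the MEF2 box overlapped a TATAAA match. Myh13 held 1 E-box and no other match, Actc1 1 CArG box, and Acta1 1 each of TATAAA, E-box and CArG box. Myh3 held 1 TATAAA and Myh8 none of the 4, in windows not printed. Over all 33469 promoters of the table, 14.2% held TATAAA, 15.1% the E-box, 1.64% the CArG box and 3.29% the MEF2 box. Among promoters of genes called higher in EOM the shares were 11.2%, 20.4%, 1.57% and 1.8%, and among those called lower 11.8%, 14.7%, 1.84% and 2.94%. The 3041 promoters of genes tested, some genes having more than 1, held them in 9.63%, 17.3%, 1.74% and 1.64%. These matches describe letters and not binding. Whether the annotated starts are those used in these muscles was not tested, so a match absent here may lie outside the window. The CArG box of Actc1, for instance, began 3 bases after the annotated start. Differences in matches between the 4 printed windows are therefore not read as differences between promoters.

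Of 17 tested members of the fast sarcomere list, 12 were lower and 0 higher, a share of 70.6% lower against 9.07% of all genes, with a median of -0.90. The list includes Ttn and Neb, which fast and slow fibres both make, so its share does not stand for fast fibres alone. Likewise Actn2, in the slow and cardiac list below, is not particular to slow fibres. Mybpc1 and Mybpc2, the slow and fast myosin-binding proteins C of the thick filament, were both lower. Mybpc2 read 8086, 7471, 7648 and 5489 in EOM and 21989, 24152, 21035 and 23226 in EDL, 3.18-fold lower (adjusted p = 2.4e-07), and Mybpc1 was 2.38-fold lower. Mylk2, the kinase of the skeletal regulatory light chain, was 3.34-fold lower, and the thin filament ruler Neb 2.64-fold lower. Troponin subunits of fast fibres fell by less: Tnni2 1.61-fold and Tnnc2 1.51-fold, while Tnnt3 read -0.45 ± 0.20 and did not pass (adjusted p = 0.11). Ttn, the giant spring of the sarcomere, read 17.5, 26.6, 13.7 and 30.9 in EOM, at the floor on all 4 arrays, and 311, 220.1, 554 and 216 in EDL. It was thus at least 10.4-fold lower (adjusted p = 0.0048), by the 1 tested probe set that stands for it, at an intensity far below that of other sarcomere genes. Tcap, the titin cap, read -0.29 ± 0.16 and Tpm1, the fast alpha-tropomyosin, -0.59 ± 0.25 (adjusted p = 0.23 and 0.091).

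Of 14 slow and cardiac sarcomere genes, 4 were higher and 4 lower, 28.6% each against 15.2% and 9.07% of all genes, with a median of 0.17. Actc1 was 1 of the 4 higher. The cardiac troponin Tnnt2 was 2.78-fold higher, the slow tropomyosin Tpm3 2.47-fold, and Fhl2, a LIM protein of heart, read 186 to 303 in EOM against the floor on all EDL arrays, at least 8.07-fold higher. Lower in EOM were Csrp3, the muscle LIM protein of the Z-disc, at 4.84-fold, Ankrd1, a stretch-responsive titin-binding protein, at 2.85-fold, the slow light chain Myl3 at 2.41-fold and the Z-disc actinin Actn2 at 2.14-fold. The slow heavy chain Myh7 read 10190.1, 10409.6, 8960.5 and 8803 in EOM and 11284, 16034, 11179 and 4492 in EDL. Its EDL arrays spread both above and below the EOM arrays, the difference was -0.03 ± 0.34 (adjusted p = 0.96), and probe sets of the near-identical Myh6 cannot be read apart from it. The same EDL array, replicate 2, was the highest of its group for Myh7, Myl3, Tnni1, Ldhb and Atp2a2, and replicate 4 the lowest for Myh7, Myl3 and Tnni1. Without EDL replicate 2 Myl3 was no longer called (adjusted p = 0.072).

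Developmental and extraocular isoforms, a list that shares Tnnt2 with the one above, had 6 of 12 members higher (50%) and 1 lower (8.33%). The shares of all genes were 15.2% and 9.07%, and the list had a median of 0.87. Besides the heavy chains, the intermediate filament Vim was 2.58-fold higher and Dlk1, a Notch-family protein of immature muscle and stroma, 2.64-fold. H19, the imprinted noncoding RNA of growing muscle, read 10204, 13593, 7382 and 11253 in EOM and 18473, 25944, 23650.3 and 19048 in EDL, 2.08-fold lower with no overlap (adjusted p = 0.00024). The fetal acetylcholine receptor subunit Chrng read 0.015 ± 0.26 and Ncam1, an adhesion molecule of denervated and young fibres, 0.29 ± 0.37 (adjusted p = 0.98 and 0.64).

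**Figure D2:**
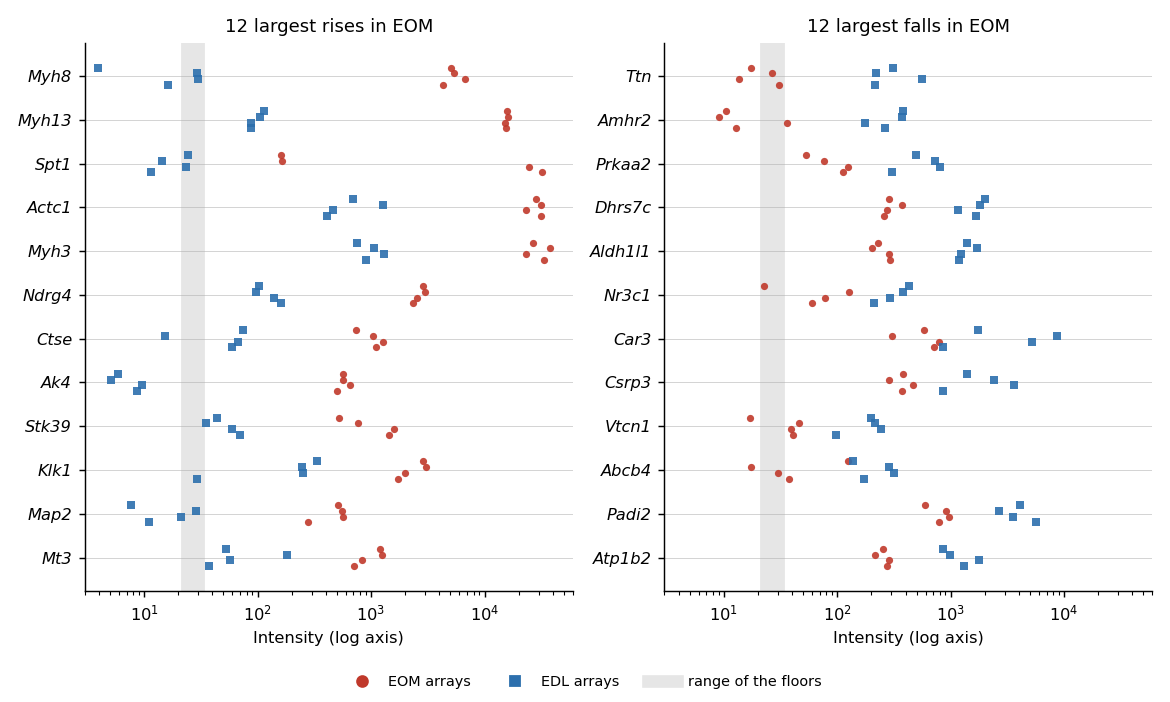
Intensity on each of the 4 EOM (red circles) and 4 EDL arrays (blue squares) at 18 months, log axis, for the top 12 rises and top 12 falls in EOM among called genes whose arrays did not overlap and whose brighter mean passed the median of all values; the grey band is the range of the floors. Spt1 splits into 161.9 and 164.3 against 24664 and 31849 within EOM, and Car3 has EDL arrays from 858 to 8607.

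Many enzymes and structural proteins exist in a form typical of adult skeletal muscle and in another form used by heart, brain or developing muscle. In 24 such pairs, several of which share Myh4, both members were tested. The other form was higher in EOM in 18 pairs, and the form of adult muscle was lower in 9 and higher in 2. Over all genes tested 15.2% were higher and 9.07% lower, and the pairs were chosen with earlier results of these data known. Both forms moved in opposite directions in 5 pairs: enolase, phosphoglycerate mutase, glycogen phosphorylase, elongation factor 1 alpha and carnitine palmitoyltransferase 1. The last counts depended on the fit. With the replicate number as a block, the form of adult muscle was lower in 21 pairs and both moved apart in 16. Acta1, Aldoa, Atp2a1, Casq1, Ckm, Myh4, Pfkm, Tnnt3 and Tpm1 were then called lower. In that fit 823 of 5741 probe sets were lower, against 531 without the block.

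In glycolysis, Eno1, the enolase of most tissues, read 9622, 10092, 9777 and 8890.1 in EOM and 3651, 3656, 3987 and 4236 in EDL, while Eno3, the muscle enolase, read 9733, 10196, 7872 and 8324 and 11651, 17518, 13304 and 16676. Eno1 was thus 2.47-fold higher (adjusted p = 7.6e-09) and Eno3 1.62-fold lower (adjusted p = 0.017). The call of Eno3 was lost without EOM replicate 3, EDL replicate 2 or EDL replicate 4 (adjusted p = 0.054, 0.062 and 0.051). Pgam1 rose 2.4-fold as Pgam2 fell 2.19-fold, and Pygb, the brain glycogen phosphorylase, rose 3.16-fold as Pygm, the muscle form missing in McArdle disease, fell 1.49-fold. Pygm was not called without EOM replicate 1, 3 or 4 or EDL replicate 4 (adjusted p = 0.073, 0.092, 0.053 and 0.13). Hk1, the hexokinase of brain, read 1384, 1566, 1489.8 and 1529 in EOM and 256, 254, 367 and 249 in EDL, 5.37-fold higher (adjusted p = 1e-09). Hk2, the insulin-responsive hexokinase of muscle, was itself 1.8-fold higher, so this pair rose together. Aldoc, the brain aldolase, was 4.97-fold higher with Aldoa at -0.60 ± 0.23 (adjusted p = 0.061), and Pfkp, the platelet phosphofructokinase, 2.06-fold higher with Pfkm at -0.55 ± 0.20 (not called at an adjusted p that rounds to 0.05, and called without EOM replicate 4, adjusted p = 0.032). Slc2a1, the basal glucose transporter, was 2.83-fold higher, and Slc2a4, the insulin-responsive one, read -0.036 ± 0.28 (adjusted p = 0.95).

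Of 28 tested genes of glycolysis and glycogen, 10 were higher (35.7%, against 15.2% of all genes) and 11 lower (39.3%, against 9.07%), with a median of -0.56. Ldhb, the heart-type lactate dehydrogenase that favours lactate use, read 13054, 14212, 9771 and 10893 in EOM and 1757, 5076, 1416 and 1802 in EDL, 5.43-fold higher (adjusted p = 8.1e-06). The lower members included genes of glycogen handling: Gyg1, the primer of glycogen synthesis, was 2.52-fold lower, Pgm1 2.5-fold, the phosphorylase kinase subunit Phka1 2.58-fold and Ppp1r1a, an inhibitor of protein phosphatase 1, 3.77-fold. Fbp2, the muscle fructose bisphosphatase, was 3.42-fold lower and Pfkfb1, which sets fructose 2,6-bisphosphate, 3.99-fold. The count of lower members was 7 without EOM replicate 3 and also 7 without EDL replicate 4. Slc16a3, the lactate exporter of glycolytic fibres, read 1279, 1182, 1237 and 1147 in EOM and 4899.9, 5287, 4212 and 5491 in EDL, 4.09-fold lower (adjusted p = 1.9e-06).

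**Figure D3:**
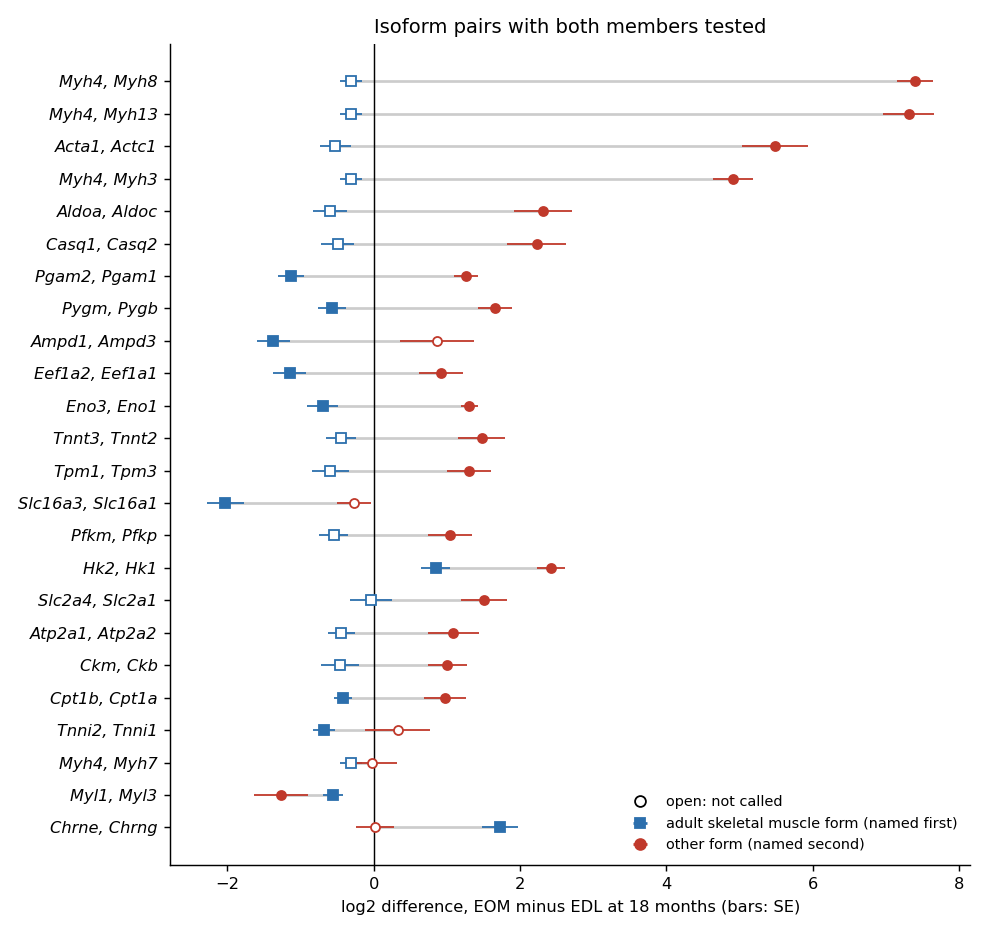
The log2 difference (EOM minus EDL at 18 months, bars SE) of the form of adult muscle (blue squares, named first) and the other form (red circles, named second) in 24 isoform pairs, filled where called. The other form lies to the right of the adult form in all pairs but Myl1 with Myl3 and Chrne with Chrng, and it was called higher in 18.

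Further pairs lay in energy transfer and protein synthesis. Ckb, the brain creatine kinase, was 2.01-fold higher, and Ckm, the muscle form, read -0.47 ± 0.26 (adjusted p = 0.21). Ak4, an adenylate kinase of the mitochondrial matrix, read 563, 564, 658 and 506 in EOM and 5.9, 5.1, 9.6 and 8.7 in EDL. All 4 EDL arrays were at the floor, so it was at least 19.6-fold higher (adjusted p = 4.8e-12). Ampd1, the muscle AMP deaminase, was 2.59-fold lower. Of 13 tested genes of creatine kinase, adenylate kinase and purine nucleotides, 3 were higher (23.1%) and 2 lower (15.4%), with a median of 0.15, shares from so few genes that lay near the 15.2% and 9.07% of all genes. The mitochondrial creatine kinase Ckmt2 read 0.11 ± 0.12 (adjusted p = 0.56). Eef1a2, the elongation factor of adult muscle and neurons, fell 2.22-fold and Eef1a1 rose 1.89-fold, a call lost on leaving out any of 5 single arrays: EOM replicate 1, 2 or 3 (adjusted p = 0.069, 0.051 and 0.073) or EDL replicate 2 or 4 (0.059 and 0.082).

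Oxidative phosphorylation, the respiratory chain and ATP synthase of mitochondria, had few calls: 4 of 42 members were higher (9.52%, against 15.2% of all genes) and 0 lower, with a median of -0.093. The 4 were Slc25a5, the ADP/ATP carrier of most tissues, Cox6a1 and Cox8a, the forms of those cytochrome oxidase subunits found outside heart and adult skeletal muscle, and the uncoupling protein Ucp2. Slc25a5 read 2255, 2539, 2545 and 2556 in EOM and 729, 817, 694 and 681 in EDL, 3.39-fold higher (adjusted p = 9.5e-09). Cox6a1 was 2.18-fold higher (adjusted p = 0.00014). Cox8a read 14041, 15787, 4241 and 14342 against 5292, 4852, 4785 and 6183: EOM replicate 3 lay below all 4 EDL arrays and the other EOM arrays far above them, and the call was lost without EOM replicate 1 (adjusted p = 0.057), 2 (0.069) or 4 (0.058). Ucp2 was 2.02-fold higher, also with EOM replicate 3 the lowest. Of the subunits of complex I, Ndufa5 read 0.046 ± 0.19 and Ndufb5 -0.022 ± 0.23 (adjusted p = 0.9 and 0.96). Leaving out EOM replicate 3, EOM replicate 4 or EDL replicate 4 gave 1 member called lower. With quantile normalisation 2 were lower and the median was 0.014. With the replicate number as a block more members were called lower, as given in the section on processing. EOM arrays lay wholly below the EDL arrays for 4 of the 42 members and wholly above for 3. Over all genes those shares were 10.6% and 15.9%.

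Of 47 genes of fatty acid use, ketone use and the TCA cycle, 10 were higher (21.3%) and 2 lower (4.26%). The shares of all genes were 15.2% and 9.07%, and the list had a median of 0.10. Bdh1, which interconverts ketone bodies, read 474, 453, 525 and 413 in EOM and 60.1, 7.6, 81.6 and 35.8 in EDL, 10.6-fold higher with 1 EDL array at the floor (adjusted p = 9.2e-06). Acsl5, a fatty acid-CoA ligase, was 5.9-fold higher and Acsl6, another, 2.97-fold lower. The carnitine carrier Slc25a20 was 2.08-fold and the peroxisomal and mitochondrial isomerase Ech1 2.08-fold higher. Cpt1a, the liver form of the gate to mitochondrial fat oxidation, was 1.97-fold higher and the muscle form Cpt1b 1.34-fold lower, the latter lost without EOM replicate 1 (adjusted p = 0.053) or 2 (0.05). Without EOM replicate 1 the count of lower members was 1. The lipoprotein lipase Lpl was 2.36-fold higher, a call lost without EDL replicate 4 (adjusted p = 0.064).

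Calcium release and reuptake set the speed of contraction and relaxation. Of 34 tested genes, 5 were higher (14.7%) and 11 lower (32.4%), against 15.2% and 9.07% of all genes. The share higher was thus near that of all genes, and the median was -0.32. Pln, phospholamban, the brake on the cardiac and slow calcium pump, read 244, 178, 303 and 170.0 in EOM and 51.2, 19.6, 43.3 and 46.7 in EDL, 5.64-fold higher (adjusted p = 6.1e-05). Casq2, the cardiac calcium store protein, was 4.68-fold higher and Casq1 read -0.49 ± 0.22 (adjusted p = 0.12). The slow pump Atp2a2 was 2.12-fold higher with EDL replicate 2 inside the EOM range, a call lost without EOM replicate 2 (adjusted p = 0.059), EDL replicate 3 (0.089) or EDL replicate 4 (0.081). The 3 other tested probe sets of Atp2a2 ranged from -0.36 to 1.27, and 1 of them was called, also higher. The fast pump Atp2a1 read -0.44 ± 0.19 and Pvalb, the calcium buffer of fast fibres, -0.52 ± 0.28 (adjusted p = 0.092 and 0.2). Among the lower genes were parts of the voltage sensor, Cacng1 at 3.17-fold and Cacna1s at 1.79-fold, and Jph2, which holds the membranes of the triad together, at 2.36-fold. Cacng1 read 998, 1057, 1309 and 1240.1 in EOM and 3126, 3905, 3801 and 3718 in EDL, with no overlap (adjusted p = 1.2e-08). The count of higher members was 3 without EOM replicate 2 and also 3 without EDL replicate 3 or with arrays centred on their medians. Calcium-dependent kinase and phosphatase genes were lower as well: Camk2a 4.33-fold, Camk2b 2.07-fold, and the calcineurin subunits Ppp3ca 2.44-fold and Ppp3cb 2.09-fold.

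At the neuromuscular junction, where the motor nerve releases acetylcholine onto the fibre, 9 of 18 tested genes were higher and 0 lower, a share of 50% against 15.2% of all genes, with a median of 0.59. The receptor subunits Chrna1, Chrnb1, Chrnd and Chrne were among them. Chrna1 read 1767, 1753, 1689 and 1674 in EOM and 400.3, 463, 481 and 318 in EDL, 4.19-fold higher (adjusted p = 1.3e-05). Chrnd read 1264, 1085, 1118 and 1228 and 237, 242, 305 and 184, 4.92-fold higher, and Chrne, the adult subunit, 3.29-fold, with no overlap of EOM and EDL arrays for either. Erbb2, a receptor for neuregulin from the nerve, was 3.12-fold higher, Agrn, the organiser of receptor clusters, 1.58-fold, and the synaptic laminin Lamb2 1.71-fold. Gadd45a, a stress gene that rises when muscle loses its nerve, read 1626, 1533, 1517 and 1557 in EOM and 236, 433, 445 and 306 in EDL, 4.53-fold higher. Prkar1a, a regulatory subunit of protein kinase A, was 2.59-fold higher.

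Genes that regulate muscle growth and differentiation had 13 of 47 members higher (27.7%) and 4 lower (8.51%), with a median of -0.011. Of all genes 15.2% were higher and 9.07% lower, so the share lower was near that of all genes. Mstn, myostatin, which limits muscle mass, read 308, 356, 450.0 and 339 in EOM and 83.5, 141, 167 and 89.7 in EDL, 3.12-fold higher (adjusted p = 0.00033). Fst, follistatin, which binds and blocks myostatin and activins, read 520.0, 566, 665 and 475 and 57.8, 59.4, 182 and 51.9, 7.31-fold higher, and Fstl1 was 4.42-fold higher. Igf1, a growth factor of muscle, was 2.47-fold higher by its brightest probe set, while its 4 other probe sets ranged from -0.71 to 0.57. Id2, an inhibitor of myogenic factors, was 3.25-fold higher and Myod1, a master myogenic factor, 1.92-fold lower. Myog read -0.011 ± 0.63 and Myf6 -0.068 ± 0.18 (adjusted p = 0.99 and 0.83). The largest fall among the members was in Amhr2, the receptor of anti-Mullerian hormone, which read 10.4, 9, 36.4 and 12.7 in EOM, at the floor on 3 arrays, and 382, 370.0, 175 and 263 in EDL.

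In defence against oxidants and toxic compounds, 15 of 46 members rose (32.6%) and 2 fell (4.35%), against 15.2% and 9.07% of all genes. The median was 0.28. Mt3, a metal-binding protein best known from brain, read 1204, 1255, 836 and 702 in EOM and 53.2, 179.9, 56.8 and 37 in EDL, 14.5-fold higher (adjusted p = 5.9e-07). The microsomal glutathione transferase Mgst1 was 8.35-fold higher, Aldh3a2, which oxidises fatty aldehydes, 8.68-fold with 2 EDL arrays at the floor, Cyp1b1, an oestrogen and xenobiotic oxidase, 5.29-fold, the extracellular superoxide dismutase Sod3 3.32-fold and the main glutathione peroxidase Gpx1 2.26-fold. The 2 other tested probe sets of Aldh3a2 read 0.28 and 2.04, and 1 of them was called. Selenow, a selenoprotein abundant in muscle, fell 2.33-fold, and 1 rather than 2 members were lower without EDL replicate 1, 2 or 4. Intracellular superoxide dismutases and catalase did not pass, with Sod1 at 0.38 ± 0.19, Sod2 at -0.68 ± 0.33 and Cat at -0.017 ± 0.32 (adjusted p = 0.16, 0.14 and 0.98). Sod2 was called lower when EOM replicate 3, its highest EOM array, was left out (adjusted p = 0.014).

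Genes of membrane channels, pumps and transporters had 3 of 31 higher (9.68%) and 6 lower (19.4%), against 15.2% and 9.07% of all genes. The median was -0.029. The beta subunits of the sodium pump moved in opposite directions: Atp1b1 read 15974, 19321, 16361 and 18008 in EOM and 6070.1, 6958, 6478 and 7235 in EDL, 2.6-fold higher (adjusted p = 3.7e-05). Atp1b2 read 252, 216, 284 and 276 and 862, 994, 1775 and 1307, 4.65-fold lower (adjusted p = 0.00019). Kcnma1, the large calcium-activated potassium channel, was 3.12-fold higher, and Kcnj12, an inward rectifier that holds the resting potential, 3.07-fold lower. The chloride channel Clcn1, which stabilises the resting membrane of limb fibres, read 162, 103, 176 and 307 in EOM and 551, 424, 457 and 524 in EDL, which did not overlap, but its difference of -1.49 ± 0.57 did not pass (adjusted p = 0.059). It was called without EOM replicate 4 (adjusted p = 0.041). Car3, a carbonic anhydrase of slow fibres, liver and fat, was 5.08-fold lower on average, with EDL arrays at 1746, 8607, 5225 and 858 against 305 to 796 in EOM.

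Lists for cells other than muscle fibres varied in how many members were higher in EOM, from 3 of 4 red cell genes to 1 of 12 genes of lymphocytes and mast cells. The part of such cells in the results on muscle genes was not tested. For this and the following lists, the shares over all genes tested were 15.2% higher and 9.07% lower. In connective tissue, 25 of 47 genes of extracellular matrix and tendon were higher (53.2%) and 1 lower, with a median of 0.98. Lum, a collagen-binding proteoglycan, read 1549.9, 1439, 2173 and 1107 in EOM and 195, 204, 60.9 and 208 in EDL, 10.2-fold higher (adjusted p = 1.1e-06). Gpc3, a cell-surface proteoglycan of development, was 10.6-fold higher, Postn, a matrix protein of remodelling tissue, 8.48-fold, and the elastic fibre proteins Efemp1 and Fbln5 5.05-fold and 4.29-fold. The fibrillar collagens Col3a1 and Col1a2 were 2.87-fold and 2.39-fold higher, while Col1a1 read 0.47 ± 0.39 (adjusted p = 0.43). Comp, a matrix protein of tendon and cartilage, was 3.32-fold lower, and the tendon and cartilage markers summed to 359 to 466 units in EOM and 652 to 2558 in EDL. Within replicates 1 and 2 alone the matrix list, which had 2 members lower without EDL replicate 1, had 20 members higher and a median of 1.20, and within replicates 3 and 4 alone 7 and 0.67.

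Nerve and Schwann cell genes had 14 of 35 higher (40%) and 1 lower, with a median of 0.69. Defining markers of these cells summed to 6176 to 6836 units on the EOM arrays and 1354 to 1883 on the EDL arrays. The myelin gene Pmp22 read 4253, 4624, 5009.9 and 4712 in EOM and 1062, 917, 961 and 778 in EDL, 5.03-fold higher (adjusted p = 1e-09). Mbp, the myelin basic protein, was 6.06-fold and S100b, a calcium sensor of Schwann cells, 8.28-fold higher. Genes known from neurons moved the same way, as with the neurofilament Nefm, at least 10.5-fold higher since EDL lay at the floor throughout, and Npy, a peptide of sympathetic nerve, at 7.79-fold. Which cells held these transcripts was not tested. Ndrg4, known from brain and heart, read 2855, 3015, 2516 and 2327 in EOM and 103, 97.8, 139 and 162 in EDL, 21.7-fold higher. The myelin gene Mag read 0.03 ± 0.27 (adjusted p = 0.95), and Ngfr, a neurotrophin receptor, was 1.63-fold lower.

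Of 16 smooth muscle and pericyte genes 9 were higher (56.2%) and 1 lower, with a median of 1.09. Their defining markers summed to 4036 to 6385 units in EOM and 1704 to 2486 in EDL. The smooth muscle actin Acta2 was 2.54-fold higher, calponin Cnn1 2.57-fold and Csrp1 2.45-fold, the last a call lost without EOM replicate 3 (adjusted p = 0.057). The 1 lower was Des, desmin, which striated fibres make in large amounts. Endothelial genes had 4 of 17 higher, a share of 23.5% near the 15.2% of all genes, and 0 lower: Vcam1 3.43-fold, Plat 2.85-fold, Ace 2.17-fold and Icam1 1.69-fold. Icam1 was not called without EOM replicate 3 or 4 or EDL replicate 2 or 3 (adjusted p = 0.11, 0.064, 0.085 and 0.087). Endothelial markers summed to 1838 to 2116 units in EOM and 1145 to 1689 in EDL. The defining endothelial markers Pecam1 and Kdr read 0.22 ± 0.29 and 0.33 ± 0.35 (adjusted p = 0.65 and 0.55). In red cells 3 of 4 tested genes were higher. Haemoglobin was among them, with Hbb at 11096, 11555, 10842 and 17496 units in EOM and 2575, 3148, 3585 and 4228 in EDL, 3.75-fold (adjusted p = 2e-05). Haemoglobin beta genes are near copies, so Hbb and Hbb-b1, at 3.7-fold, are not separate evidence, and the 3rd called member was Alas2, which starts haem synthesis in red cell precursors, at 2.42-fold, a call lost without any of EOM replicates 1, 3 and 4 or EDL replicates 1, 2 and 3 (adjusted p = 0.055 to 0.11).

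The list of adipocytes and lipid synthesis had 9 of 28 higher (32.1%), 4 lower (14.3%) and a median of 0.16. Plin2, a lipid droplet coat, read 3125, 3563, 3325 and 4037 in EOM and 449, 384, 221 and 330.2 in EDL, 10.4-fold higher (adjusted p = 8.2e-08). Acly and Fasn, which make fatty acids from citrate, were 6.58-fold and 4.49-fold higher, the desaturases Scd and Scd2 6.58-fold and 4.14-fold, and Cidea, a lipid droplet protein, 5.6-fold. Of 6 tested fat cell markers 2, Cidea and Cfd, were called higher and 0 lower. Cfd read 926, 903, 1074 and 768 in EOM and 374, 313, 917.5 and 312 in EDL. The fat cell markers Fabp4 and Lep read -0.20 ± 0.27 and -0.023 ± 0.30 (adjusted p = 0.66 and 0.97). Adipocyte markers summed to 4420 to 4963 units in EOM and 3274 to 4814 in EDL. Without EDL replicate 2 the count of lower members of the list was 2. In sterol synthesis Fdft1 and Cyp51 were 2.73-fold and 2.86-fold lower, whereas Sqle, at the floor throughout EDL, was at least 3.07-fold higher. Fdft1 was not called without EOM replicate 4 or EDL replicate 1 or 2 (adjusted p = 0.083, 0.055 and 0.059). The other lower members of the list were Cebpb at -1.32 (adjusted p = 1.6e-05) and Me1 at -0.79 (adjusted p = 0.013). Me1 was not called without EDL replicate 2.

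Of 24 tested genes of orbital gland, epithelium and retina, 8 were higher (33.3%) and 0 lower, with a median of 0.45, and 1 of them, Spt1, was uneven between EOM arrays. Spt1, a secretory protein of salivary and lacrimal tissue, read 162, 164, 24664 and 31849 in EOM and 24.6, 14.5, 23.4 and 11.5 in EDL, all at the floor. EOM replicates 3 and 4 thus stood far above replicates 1 and 2, and the difference of 6.20 ± 1.24 (adjusted p = 0.00062) averages both kinds. Without EOM replicates 3 and 4 it was 2.49 and still called (adjusted p = 0.037), in an alternative chosen after the values were seen. With replicates 1 and 2 of both muscles alone at 18 months, Spt1 was not called (adjusted p = 0.081 by limma). Its call without EOM replicates 3 and 4 thus depended on which EDL arrays were kept. Orbital gland and epithelial markers summed to 3764 and 4099 units in EOM replicates 1 and 2, 27751 and 34763 in replicates 3 and 4, and 508 to 1235 in EDL. That split in the sum came from Spt1. The other 10 markers summed to 3602.5, 3934, 3088 and 2914 in EOM replicates 1 to 4 and 496.8 to 1211 in EDL. Klk1 made up most of that sum, and some dimmer markers were higher in replicates 3 and 4. Smr3b, another gland gene, read 53, 28.6, 151 and 135.2 in EOM replicates 1 to 4 and 46.5 to 128.2 in EDL. Klk1 and Ctse did not share a split of the size seen in Spt1. Klk1, tissue kallikrein, read 2879, 3078, 1996 and 1745 in EOM and 336, 248, 250.1 and 29 in EDL, 14.9-fold higher, and Ctse, cathepsin E of epithelia, 732, 1050.1, 1265 and 1094 and 74, 15.4, 67.5 and 59.3, 20.2-fold higher. The epithelial keratin Krt19 read 151, 146, 178 and 139 in EOM and 17.7, 49, 13.8 and 23.1 in EDL, where 3 of 4 arrays were at the floor, so its difference of 2.10 ± 0.36 (adjusted p = 0.00014) is in part set by that floor. The tight junction gene Cldn3 was 4.24-fold higher. Spt1, Klk1, Krt19 and Cldn3 were the 4 called higher of 11 tested gland and epithelial markers, with 0 lower. Those not called included Smr3b and all other keratins tested.

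Antigen presentation and interferon response had 9 of 23 higher (39.1%) and 0 lower, with a median of 0.65, and 5 higher without EDL replicate 2 or with arrays centred on their medians. Within replicates 1 and 2 alone 4 were higher, and within replicates 3 and 4 alone 0, with medians of 0.65 and 0.51. Psmb8, a subunit of the immunoproteasome, read 421, 347, 363 and 266 in EOM and 49.1, 50.3, 172 and 126 in EDL, 4.03-fold higher (adjusted p = 0.00066), and B2m, the light chain of class I molecules, was 1.57-fold higher. Macrophage, complement and inflammation genes had 9 of 25 higher (36%) and 2 lower, with a median of 0.67. Macrophage markers summed to 1856 to 2423 units in EOM and 609 to 1206 in EDL. The complement proteases C1r and C1s were 3.86-fold and 3.85-fold higher, their inhibitor Serping1 2.87-fold and the lysosomal protease Ctss 2.94-fold. Cd55, which shields cells from complement, was 2.17-fold lower, and 1 rather than 2 members were lower without EOM replicate 1 or 3 or EDL replicate 1, 3 or 4. Of 12 lymphocyte and mast cell genes 1, Cd5, was higher (8.33%), and the macrophage marker Cd14 read 0.12 ± 0.34 (adjusted p = 0.84).

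**Figure D4:**
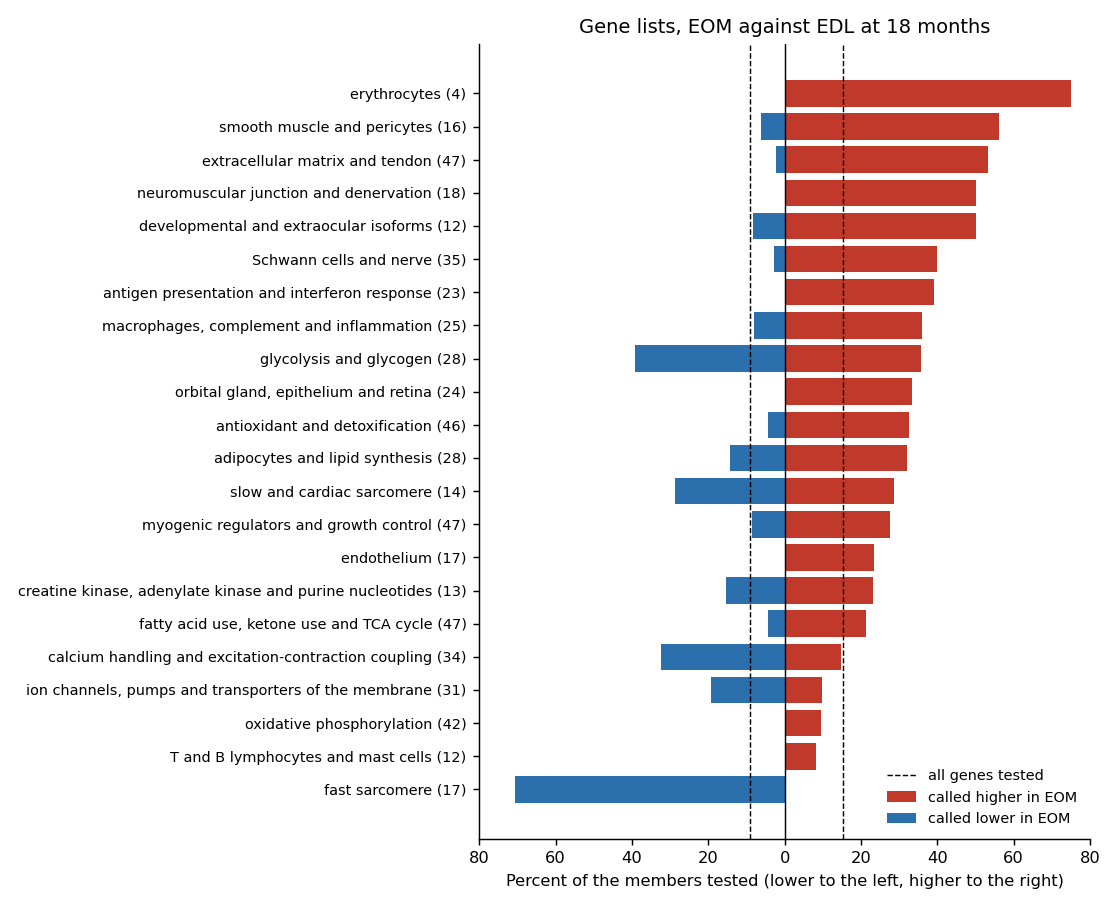
Percent of tested members called higher (red, to the right) and lower (blue, to the left) in EOM at 18 months for 22 gene lists, with the number tested in brackets and dashed lines at the shares over all genes tested, 15.2% and 9.07%. The fast sarcomere list has 70.6% lower and none higher, and erythrocytes, smooth muscle, and extracellular matrix have over 50% higher.

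Several of the largest changes lay outside the lists. Stk39, a kinase that controls cation-chloride cotransport, read 518, 763, 1597 and 1430.5 in EOM and 44, 35.4, 59.3 and 70.6 in EDL, 19.3-fold higher (adjusted p = 9.1e-07), and Map2, a microtubule protein of neurons, read 509, 551, 571 and 276 and 7.6, 28.5, 21.3 and 11. As 3 EDL arrays were at the floor for Map2, its difference of 3.87 ± 0.30 (adjusted p = 8e-10) is in part set by it. On the lower side, Prkaa2, the catalytic subunit of AMP kinase most used in muscle, read 52.9, 76.1, 124 and 112 in EOM and 492, 726, 806 and 306 in EDL, 6.3-fold lower (adjusted p = 0.0039). Dhrs7c, an enzyme of the sarcoplasmic reticulum, read 288, 371, 276 and 257 and 2019.8, 1798, 1169.8 and 1664, 5.53-fold lower (adjusted p = 5.8e-09). Aldh1l1, a folate enzyme, was 5.49-fold lower with arrays in narrow ranges, 204 to 289.6 units in EOM and 1193 to 1721 in EDL. Padi2, which converts protein arginine to citrulline, was 4.81-fold lower, Nr3c1, the glucocorticoid receptor, 5.09-fold, the immune checkpoint ligand Vtcn1 4.83-fold and the phospholipid transporter Abcb4 4.81-fold. For the last 3 genes some EOM arrays lay at the floor.

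The muscle difference was also called at the other ages for many genes. At 6 months 419 genes were higher in EOM (12.3%) and 220 lower (6.43%), and at 30 months 415 (12.1%) and 272 (7.96%). Of the 812 probe sets called higher at 18 months 415 were called higher at both other ages, and of the 531 lower, 202. Another 390 were called at 18 months and at neither other age, yet just 1 of these was called in a test of the difference between ages. Against 6 months, no probe set differed in its muscle difference (0 of 5741, or 0%, by limma, with 253 at an unadjusted p under 0.05, or 4.41%). Of the 17 fast sarcomere genes 12 were lower at 6 months and 11 at 30. Matrix genes called higher numbered 12 at 6 months, 25 at 18 and 10 at 30, with none of the 47 called in either test between ages. Myh7 was called lower in EOM at 6 months (-1.06), but its change from 6 to 18 months did not pass (adjusted p = 1).

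Against 30 months, 19 probe sets (0.331%) differed in their muscle difference, 17 with EOM further above EDL at 18 months and 2 with it less so. They named 11 genes. In 10 of these EDL was called lower at 18 than at 30 months, as it was for 49 of all 3419 genes. EOM was called in neither direction for any gene tested. The test between ages was built from these same values, so its calls and those within EDL are not separate. Chrna1 averaged 1720.4 ± 46.1 units (SD, n = 4) in EOM at 18 months and 1771 ± 197 at 30, against 416 ± 73.4 and 3932 ± 1447 in EDL. The receptor subunit was thus higher in EOM in mid life and lower in old age, log2 2.07 and -1.08, a difference between the ages of 3.15 ± 0.42 (adjusted p = 0.00018). Gadd45a went from 2.18 at 18 months to -0.63 at 30 (adjusted p = 0.00018), Chrnd from 2.30 to 0.12 and Fst from 2.87 to -0.15.

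Ankrd1 stood lower in EOM at both ages, -1.51 at 18 and -5.01 at 30 months, with EDL at 566 ± 355 and 5698 ± 1322 units (SD, n = 4; adjusted p = 0.002). The lysosomal protease Ctsl and B2m were called higher in EOM at 18 months, 0.79 and 0.66. At 30 months both were called lower there, -0.60 and -0.55. Igf2, the fetal growth factor, and Slc29a1, a nucleoside transporter, were not called at 18 months, -0.34 ± 0.26 and -0.26 ± 0.18. In old age both were called lower, -2.05 and -1.70. Myh3 was further above EDL at 18 months (4.91) than at 30 (3.15). Xylt2, an enzyme that starts proteoglycan chains, was the exception: EOM itself averaged 74.4 ± 39.3 units at 18 months against 231 ± 41.7 at 6 and 235 ± 4.11 at 30 (SD, n = 4), and the muscle difference in mid life did not pass (-0.031 ± 0.34). The calls between ages of Chrnd, Fst, Igf2, Myh3 and Xylt2 were each lost when any of several single arrays was left out, with adjusted p-values up to 0.11. EOM and EDL values at 18 months serve both tests between ages, so these tests share them.

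**Figure D5:**
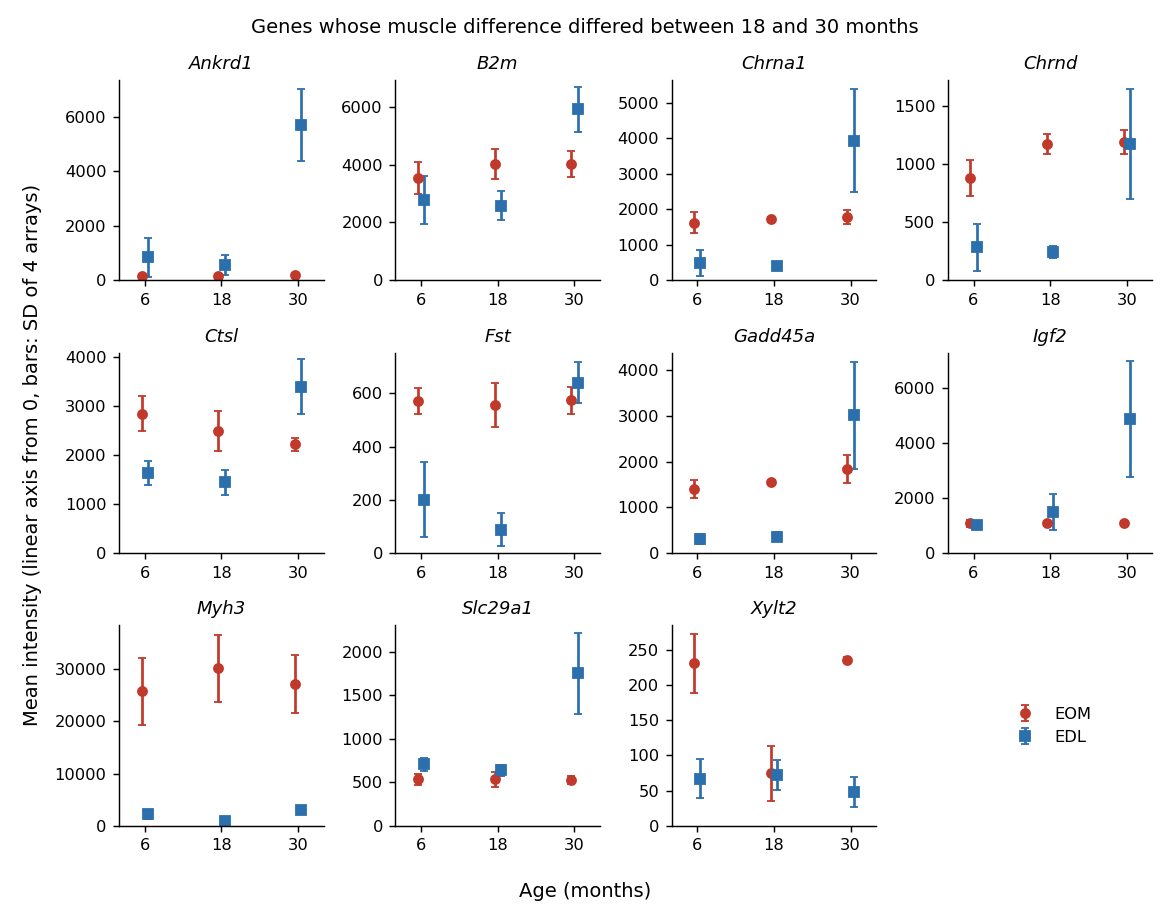
Mean intensity (linear axis, bars SD of 4 arrays) in EOM (red) and EDL (blue) at 6, 18 and 30 months for the 11 genes whose muscle difference differed between 18 and 30 months. In 10 panels EDL is higher at 30 than at 18 months, and in the Xylt2 panel EOM is low at 18 months.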

How the data were processed

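RNA of EOM and EDL was measured on Affymetrix Rat Genome U34 arrays. The authors deposited 1 linear intensity per probe set and array, made with MAS5 per the submitters' processing notes. The labels name 2 dyes, while the design text describes biotin labelling, and each array was read as 1 colour. Of 8799 probe sets, 59 controls were dropped. Intensities were floored at each array's 25th percentile and put on the log2 scale, with no further normalisation, and 5741 probe sets above the array's 40th percentile on at least 3 of 4 arrays of any group were tested. The 2999 others were left out. A means model of 6 groups over 24 arrays was fitted with limma 3.58.1 in R 4.3.3 (eBayes with an intensity trend, 18 residual degrees of freedom, two-sided, Benjamini-Hochberg over all probe sets tested, called at an adjusted p under 0.05), and its code was checked on simulated data. Differences between ages are interaction contrasts of the same fit.

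Symbols came from the platform annotation, where 7006 probe sets had 1 symbol, 308 several and 1426 none. The brightest tested probe set at 18 months stood for a gene. Genes were named by rule: the 12 largest rises and falls among called genes whose groups did not overlap and whose brighter mean passed the median of all values, up to 5 called genes in each direction and the uncalled among the first 6 of each list, up to 8 called genes in each direction per age test, a set of anchor genes and 32 isoform pairs. The members and lists were chosen with earlier results of these data known. Named outside that rule, after their values were seen, were Agrn, B2m, Cacna1s, Camk2b, Cfd, Chrnb1, Col1a2, Col3a1, Ctsl, Gpx1, Igf1, Lamb2, Mybpc1, Myh2, Ncam1, Pgm1, Pmp22, Prkar1a, Scd2, Smr3b, Sod3, Sqle, Tcap and Vim. Promoter sequences are RefSeq's for GRCr8 and were found for 2818 of 3419 genes.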

Additional observations from a re-analysis of the deposited data

Results flagged for a closer look

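For genes named in the text other than Cfd and Smr3b, the 4 arrays of each muscle at 18 months were searched for 1 that stood apart. Dixon's critical value was used. This held in 26 of 394 cases, a case being a gene in 1 muscle, and chance gives about 1 in 20. In EOM, replicate 3 was low for Cox8a (4241.4 units), Ucp2 (1027.4) and Sod1 (4653.8) and high for Ctss (1349.0). Replicate 4 was high for Hbb (17495.8) and Hbb-b1 (7830.1) and low for Map2 (275.7) and Ncam1 (115.7), and replicate 1 was low for Slc25a5 (2254.9) and high for Xylt2 (133.1).

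In EDL, replicate 3 was high for Col3a1 (1361.6 units), Fst (182.3), Hk1 (367.1), Myh1 (399.7) and Pfkp (128.1) and low for Ckmt2 (14053.2), Fbp2 (2389.8) and Lum (60.9). Replicate 4 was high for the glycolytic genes Pfkm (33006.4) and Pygm (39145.4) and for Acta1 (54748.7), and low for Kdr (86.1) and Klk1 (29.0). Replicate 2 was low for Ctss (171.3) and Efemp1 (214.5), and replicate 1 for Gpc3 (37.0).

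The muscle difference itself differed between 18 and 30 months, by the limma interaction, for 11 genes: by 3.50 (log2) for Ankrd1, 3.15 for Chrna1, 3.02 for Fst, 2.81 for Gadd45a, 2.18 for Chrnd, 1.77 for Myh3, 1.71 for Igf2, 1.44 for Slc29a1, 1.40 for Ctsl, 1.20 for B2m and -2.35 for Xylt2.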

How the results depend on the processing

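Of 157 named genes called at 18 months, 80 were called under every one of 22 alternatives in which they were tested, 77 lost the call in at least 1, and 0 changed sign. Of the 56 named genes not called, 17 were called in at least 1 alternative and 23 changed sign between alternatives. Leaving out 1 array gave 1125 to 1239 probe sets called (1343 with all), 764 to 848 with at least 2-fold, 203 to 225 list members (235 with all) and 142 to 150 named genes. It gave 0 to 3 calls for the difference from 6 months and 13 to 27 for that from 30 months. With replicates 1 and 2 alone there were 728 calls, 150 list members and 14 calls against 30 months. With replicates 3 and 4 alone there were 492 calls, 435 with at least 2-fold, 104 list members, 92 named genes and 5 calls against 30 months. Leaving out EOM replicates 3 and 4 alone, chosen after the data were seen, gave 898 calls and 11 against 30 months. Fewer arrays entered those fits.

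For the difference from 30 months (19 calls), the groups of the contrast alone gave 29, array weights 29, and arrays centred on their medians 11. For the difference from 6 months (0 calls), quantile normalisation, centring and no intensity trend gave 1 each and array weights 3. The cause was not tested. Same-numbered EOM and EDL arrays correlated in their deviations at 0.062, 0.13, 0.29 and 0.32, and not every one passed the 0.1 set for pairing, nor did every array correlate best with its own number. Same-numbered arrays of different ages correlated too, up to 0.46 in replicate 4 (EDL at 6 and 18 months) and 0.53 in replicate 3 (EOM at 6 and 30 months). In replicate 1 such values went down to -0.0075 (EDL at 30 and EOM at 6 months). What the number stands for is not labelled. With the number as a replicate block, 1822 of 5741 probe sets were called, 999 higher and 823 lower, against 812 and 531 without it. The block gave 1 call against 6 months and 43 against 30. In the 24 isoform pairs the block left the other form higher in 18, but the form of adult muscle was lower in 21 rather than 9, with both moving apart in 16 rather than 5: Aldoa, Pfkm, Ckm, Acta1, Atp2a1, Casq1, Tnnt3, Tpm1 and Myh4 (in 4 pairs), not called without it, were called lower. With it 7 rather than 0 of 42 oxidative phosphorylation genes were lower. The creatine kinase list (13 tested) and the antioxidant list (46 tested) had 4 lower each rather than 2. Of 47 matrix genes 2 rather than 1 were lower, and of 31 channel genes and transporters 6 rather than 3 were higher. The design text's rule, as far as intensities allow it (all 16 array pairs one way and a mean fold above 2), passed 787 probe sets, of which 739 were among the 844 called with at least 2-fold. Values near the floor are limited by signal over background.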

Other observations

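Genes described here were chosen after their values were seen. Several enzymes of steroid, amine and lipid metabolism were far higher in EOM. Hsd11b1, which regenerates active glucocorticoid, read 3601, 3367, 3454 and 2455 in EOM and 231, 187, 311 and 220.5 in EDL, 13.7-fold higher (adjusted p = 6.4e-12 by limma). Ddc, which makes dopamine and serotonin from their precursors, was 13.2-fold higher, with 1 EDL array at the floor, and the fatty acid elongase Elovl5 10-fold. Fabp5, an epidermal fatty acid-binding protein, and Apod, an apolipoprotein of nerve and stroma, were 7.91-fold and 10.4-fold higher. Ptgds, a prostaglandin D synthase, read 389, 439.7, 641 and 585 in EOM and 27.5, 62.4, 156 and 52.8 in EDL.

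Alx1, a homeobox factor of the developing face, read 108, 130.5, 128 and 61.3 in EOM and 9.2, 6.8, 20.8 and 24.3 in EDL, all 4 at the floor, so it was at least 3.52-fold higher (adjusted p = 0.00043 by limma). Hoxa5, a factor of the trunk axis, read 8.6, 14.4, 28.5 and 31.3 in EOM, all 4 at the floor, and 136, 73.8, 92.4 and 90 in EDL, at least 3.32-fold lower (adjusted p = 0.0021). Nr2f1, a nuclear receptor, was 4.03-fold higher. Lower in EOM were also the growth hormone receptor Ghr at 3.67-fold, Tspan8, a tetraspanin, at 4.45-fold, and Eef2k, a kinase that slows protein elongation, at 3.74-fold.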
